A study of Mus musculus with 17 samples.

Results

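Peaks of open chromatin were examined at 10 mouse genes for histone deacetylases and sirtuins, which were Hdac1, Hdac2, Hdac3, Hdac4, Hdac5, Hdac7, Hdac9, Hdac11, Sirt1 and Sirt2. A peak belonged to a gene when it overlapped the GENCODE gene body extended by 10 kb on each side (mm10), here called the gene window. Of the 2136179 peaks called on chromosomes 1 to 19 and X in 17 libraries, 2086 lay in these windows. Overlapping peaks were merged over the libraries into regions, and 151 of the 258 member regions were called in at least 2 libraries of 1 group and were kept, out of 147420 regions kept genome-wide. The 10 genes were chosen by enzyme family, with earlier results of these data known, and no measured value entered the rule.

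Open DNA was cut by a transposase and sequenced (ATAC-seq) in nuclei of the nucleus accumbens that had been sorted for the neuronal protein NeuN. Mice were of the C57BL/6 strain and 52 to 54 days old. Those of the diestrus cocaine, proestrus cocaine and male cocaine groups were injected intraperitoneally with cocaine at 10 mg/kg and sacrificed 1 h later. The diestrus control, proestrus control and male control groups were given no cocaine and served as the baseline, so injection and drug cannot be told apart. Each library pooled nuclei of 3 animals, with 3 libraries in every group except male cocaine, which had 2. No allele or transgene was named in the labels for any group. For library 2 of diestrus cocaine, the stage field held no entry, and the title gave the group. Diestrus is the stage of the estrous cycle with low estradiol and proestrus the stage with high estradiol.

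Libraries held 75458 to 157005 peaks, with a background pileup of 6.26 to 9.55 reads that served as a relative measure of depth. The male cocaine libraries had the fewest peaks (87707 and 75458, against 134653 to 150009 in male controls) at a background pileup of 8.15 and 7.60 reads, against 6.26 to 8.11 in male controls. Diestrus cocaine library 1 held 157005 peaks, against 111834 and 99789 in the other diestrus cocaine libraries and 128644 to 146224 in diestrus controls. Its share of called regions in common (Jaccard index) was 0.685, 0.732 and 0.740 with the diestrus controls. It was 0.663 and 0.587 with the other diestrus cocaine libraries. Unequal peak numbers limit this index, so the values do not show which group the library resembles. Promoter peaks of 4 neuronal genes (Rbfox3, Snap25, Syt1, Syn1) were called in all 17 libraries, and 6 of 8 medium spiny neuron genes were too, the other two in 16. Promoters of 3 microglial and 2 endothelial genes were called in no library. Of 3 astrocyte genes, Aqp4 and Aldh1l1 were called in none and Gfap in 16 libraries, and of 3 oligodendrocyte genes, Mbp was called in 17 and Mog and Mag in 1.

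Histone deacetylases remove acetyl groups from lysines of histones and other proteins, which generally favors closed chromatin and lower transcription. Class I enzymes (Hdac1, Hdac2, Hdac3) work in the nucleus within corepressor complexes, whereas class IIa enzymes (Hdac4, Hdac5, Hdac7, Hdac9) shuttle between cytoplasm and nucleus in response to calcium signals and bind the transcription factor MEF2. Hdac11 is the sole class IV enzyme, and the sirtuins Sirt1 and Sirt2 use NAD as a cofactor. In the nucleus accumbens, which responds to drug reward, Hdac5 and the sirtuins have been studied in cocaine responses.

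Of the 151 member regions, 32 (21.2%) were called in all 17 libraries, and the share over all kept regions was 25.0%. Another 14 were called in 14 to 16 libraries, 73 in 4 to 13 and 32 in 2 or 3. Most lay within gene bodies outside exons (109 regions), with 4 overlapping exons by their summit, 20 upstream and 18 downstream. The longest genes held the most regions: Hdac9 (870 kb) held 50 and Hdac4 (267 kb) 27, followed by Hdac5 with 21, Hdac7 with 14, Sirt1 with 9, Sirt2 with 8, Hdac2 and Hdac3 with 7 each, Hdac11 with 5 and Hdac1 with 3. Regions called in every library were the strong ones. Their highest fold enrichment, which is the summit pileup over the background pileup of the same library, ranged from 5.35 to 70.4 with a median of 10.9, against 2.25 to 9.43 with a median of 3.51 in the 105 regions called in fewer than 14 libraries. A missing call therefore mostly concerned weak peaks and means not called at the depth and enrichment of that library. In nuclei pooled from many cells, fewer cells with an open site and less opening per cell cannot be told apart.

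The 3 member regions with the highest fold enrichment all held an annotated start. They were at Hdac4 (chr1:92177543-92182766, 41.6 to 70.4 over the libraries, median 55.4), Hdac2 (chr10:36973318-36976046, 22.1 to 45.6, median 31.0) and Hdac11 (chr6:91150690-91166095, 25.2 to 43.6, median 33.6). The Hdac11 region was 15406 bp wide, and its strongest summit lay 2.8 kb before the most upstream Hdac11 start. At the most upstream GENCODE start of the other genes, regions called in all 17 libraries reached a median of 24.4 at Sirt2 (chr7:28765498-28768063), 18.9 at Hdac3, 16.5 at Sirt1 (chr10:63381151-63384135), 13.9 at Hdac5 (chr11:102226021-102232543) and 10.6 at Hdac1 (chr4:129542113-129543237). The Sirt2 region also lay within 1 kb of an Nfkbib start, and the Sirt1 region within 1 kb of a Dnajc12 start. The summit of this Sirt1 region lay 1.0 kb before the most upstream Sirt1 start. A weak second region within 1 kb of that Sirt1 start (chr10:63379885-63381091) was called in 7 libraries. The RefSeq start of Hdac4 lay in its strongest region, whereas its most upstream GENCODE start had a weak region (chr1:92195223-92196167) called in 10 libraries. A second strong Sirt1 region (chr10:63336648-63339990, median 12.6) held the RefSeq start. Hdac7 and Hdac9 had no kept region at the most upstream start and had regions called in all 17 libraries at internal starts. These were 1 region in Hdac7 (chr15:97830211-97832308, median 6.12) and 2 in Hdac9, of which one (chr12:34905122-34908555, median 9.53) lay 9.9 kb past the most upstream start and the other (chr12:34527632-34529674, median 5.45) held an internal RefSeq start, here called the Hdac9 RefSeq start.

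RefSeq promoter windows (250 bases before to 50 after a start, GRCm38.p6) matched 8 of the 10 members with 12 entries, of which 9 lay inside kept regions. The 250 bases before the start are shown for Hdac4, whose start region was the strongest, and for Hdac2, Hdac5 and Hdac9, whose start regions carry results on fold enrichment below. They run from the GC-rich Hdac2 and Hdac4 windows (69.7% and 68.0% GC over 300 bases) to the Hdac9 window (45.3% GC). Each is written along the strand of the gene, with capitals marking GC boxes (GGGCGG or CCGCCC) and, in Hdac5, a match to the MEF2 consensus near its 3′ end.
Hdac2 promoter, + strand, chr10:36974294-36974543: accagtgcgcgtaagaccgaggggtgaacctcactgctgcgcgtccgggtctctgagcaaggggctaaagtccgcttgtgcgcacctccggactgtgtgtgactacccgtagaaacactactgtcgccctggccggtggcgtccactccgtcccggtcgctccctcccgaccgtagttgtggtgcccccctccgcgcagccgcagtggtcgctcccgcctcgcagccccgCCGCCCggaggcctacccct
Hdac4 promoter, − strand, chr1:92180342-92180591: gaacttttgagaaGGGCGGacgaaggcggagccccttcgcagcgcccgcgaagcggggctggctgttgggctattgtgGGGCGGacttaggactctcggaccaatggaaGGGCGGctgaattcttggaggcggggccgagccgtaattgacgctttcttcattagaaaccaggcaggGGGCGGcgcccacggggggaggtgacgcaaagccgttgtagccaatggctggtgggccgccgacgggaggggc
Hdac5 promoter, − strand, chr11:102230173-102230422: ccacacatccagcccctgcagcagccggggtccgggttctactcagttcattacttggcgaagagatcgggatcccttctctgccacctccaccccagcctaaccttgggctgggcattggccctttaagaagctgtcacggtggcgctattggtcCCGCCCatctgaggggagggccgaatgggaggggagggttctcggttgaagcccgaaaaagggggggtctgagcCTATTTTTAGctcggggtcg
Hdac9 promoter, − strand, chr12:34528890-34529139: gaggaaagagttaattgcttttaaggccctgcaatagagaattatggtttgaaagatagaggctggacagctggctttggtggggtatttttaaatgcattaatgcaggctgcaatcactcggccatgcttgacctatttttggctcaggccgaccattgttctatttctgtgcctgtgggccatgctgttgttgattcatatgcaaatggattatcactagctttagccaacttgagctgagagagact

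A GC box, read on both strands, stood in 7 of the 12 member windows, against 35.7% of 32851 RefSeq promoter windows of the same length. The MEF2 consensus was found in 1 (Hdac5), against 0.557% of all windows, and the AP-1 site (TGACTCA or TGAGTCA) in 1 (Hdac7), against 5.20%. The cyclic AMP response element (TGACGTCA) and the estrogen response element consensus were in none, against 1.79% and 0.0700%. Within 100 bp of the summits of the 151 member regions, the AP-1 site was found in 15 (9.93%, against 10.1% of all regions), the MEF2 consensus in 7 (4.64%, against 1.26%) and a GC box in 19 (12.6%, against 9.0%). The cyclic AMP response element was found in 1 (0.662%, against 0.498%) and the estrogen response element in none (0%, against 0.0142%). Of the 7 regions with a MEF2 match, 3 lay in Hdac5, 2 in Hdac9, 1 in Hdac7 and 1 in Sirt1. These matches are descriptions of the sequence only.

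Summit windows of 121 bases are shown for 3 regions whose calls separated the groups in the full set of peaks and which are described below. The Hdac9 region at 440.2 kb past the most upstream start was called in the cocaine-treated female libraries and no other. The Hdac9 region at 263.2 kb was called in opposite directions in proestrus females and males (it was chosen after its values were seen). The Hdac4 region 0.3 kb upstream of the start was not called in diestrus females after cocaine, and its capitals mark the AP-1 site. All are on the + strand of mm10.
Hdac9 440.2 kb, + strand, chr12:34476793-34476913: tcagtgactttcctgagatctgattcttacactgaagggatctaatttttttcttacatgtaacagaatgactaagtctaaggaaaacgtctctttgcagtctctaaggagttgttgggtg
Hdac9 263.2 kb, + strand, chr12:34653789-34653909: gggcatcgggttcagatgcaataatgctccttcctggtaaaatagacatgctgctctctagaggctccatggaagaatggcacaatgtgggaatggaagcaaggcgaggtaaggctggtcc
Hdac4 0.3 kb upstream, + strand, chr1:92195939-92196059: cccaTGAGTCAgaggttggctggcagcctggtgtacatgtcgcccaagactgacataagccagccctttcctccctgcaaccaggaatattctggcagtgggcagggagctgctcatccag

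To ask how much open chromatin each gene carried with and without cocaine, peaks were counted per gene window in each library. Together the 10 windows held 104 to 160 peaks in the female libraries, 126 to 147 in the male controls and 90 and 78 in the male cocaine libraries, which was 0.0857% to 0.104% of all peaks of a library. Relative to each library's total, the male cocaine libraries (0.103% each) lay above the male controls (0.0936% to 0.0980%), the opposite order to the raw counts. Cocaine and control were compared by the mean of the 3 within-group differences (diestrus, proestrus, male), with an exact permutation of treatment labels within each sex and stage and Benjamini-Hochberg adjustment over 17159 autosomal protein-coding genes. The permutation covered 4000 assignments, and no gene passed an adjusted p of 0.05 (0 members, 0% of all genes). Without adjustment, p was under 0.05 with fewer peaks after cocaine in 4 of the 10 members (Hdac3, Hdac4, Hdac5, Hdac7), beside 30.5% of all genes, and with more peaks in 0 members, beside 1.82% of all genes.

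**Figure D1:**
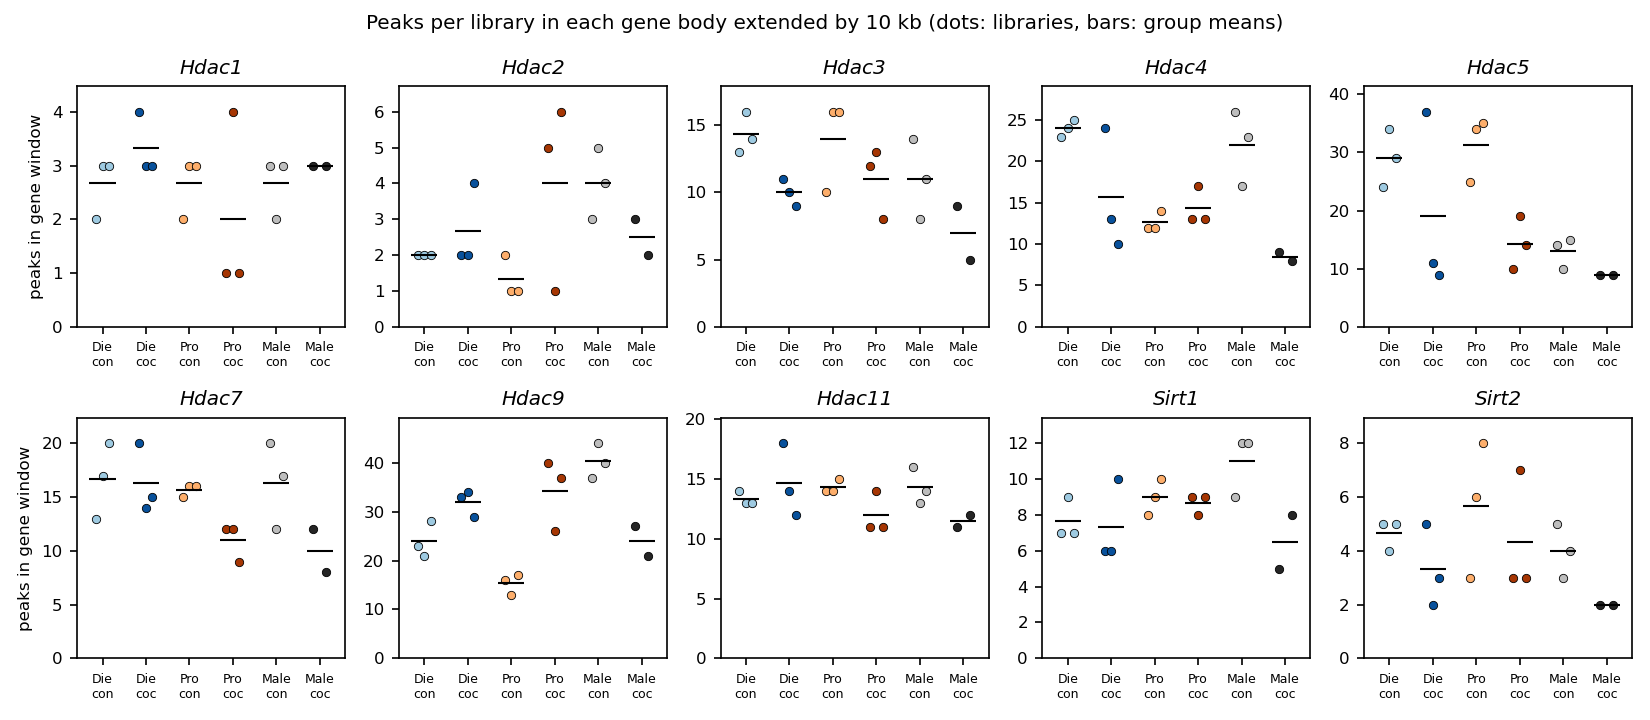
Number of peaks per library (y axis) in each of the 10 gene windows, by group on the x axis (Die, diestrus; Pro, proestrus; con, control; coc, cocaine). Dots are libraries and bars are group means. Raw Hdac9 counts were higher without overlap after cocaine in both female stages and lower in males (mean 40.3 in male control, 24 in male cocaine), and Hdac5 was lower in proestrus cocaine (14.3) than in proestrus control (31.3). Male cocaine libraries also held the fewest peaks in total, and relative to these totals the male Hdac9 counts overlapped.

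Among class I genes, Hdac3, the catalytic subunit of the NCOR corepressor complex, had the smallest unadjusted p. Its window, which also overlaps Diaph1, Rell2 and Fchsd1, held 13, 16 and 14 peaks in diestrus control libraries and 11, 10 and 9 in diestrus cocaine libraries. Proestrus control libraries held 10, 16 and 16 and proestrus cocaine libraries 12, 13 and 8, and male libraries held 14, 8 and 11 in control and 9 and 5 in cocaine. The arms did not overlap in diestrus and overlapped in proestrus and male. The mean difference, cocaine minus control, was −3.78 peaks (exact permutation p = 0.00975, adjusted p = 0.0725), and with the same number of strongest peaks taken from each library it changed sign (0.278, adjusted p = 0.971). Hdac1 and Hdac2, close relatives that share the SIN3 and NuRD complexes, had few peaks. Hdac1 held 1 to 4 in every library, with a mean difference of 0.111 (exact permutation p = 0.924). Hdac2 held 1 to 6, with a mean difference of 0.611 (exact permutation p = 0.440), and proestrus cocaine libraries spread widely (5, 1 and 6 peaks, against 2, 1 and 1 in control).

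Class IIa genes held most member peaks, 46 to 114 per library. Hdac5, a calcium-regulated repressor of MEF2 targets, held 24, 34 and 29 peaks in diestrus control libraries, 37, 11 and 9 in diestrus cocaine, 25, 34 and 35 in proestrus control and 10, 19 and 14 in proestrus cocaine. Male libraries held 14, 10 and 15 in control and 9 in each of both cocaine libraries. Cocaine libraries lay below every control library of the same stage in proestrus and male, and in diestrus all but library 1 did. The mean difference was −10.3 peaks (exact permutation p = 0.0150, adjusted p = 0.0851). Without diestrus cocaine library 1 it was −13.3 and passed the threshold (adjusted p = 0.0112), as did Hdac3 (−3.94, adjusted p = 0.0400), Hdac4 (−8.11, adjusted p = 0.0374) and Hdac7 (−4.39, adjusted p = 0.0354) in the same permutation test, beside 29.7% of all genes with fewer peaks at that threshold. With the same number of strongest peaks taken from each library, the Hdac5 difference shrank to −2.94 (adjusted p = 0.180).

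Hdac4, which is abundant in neurons, held 23, 24 and 25 peaks in diestrus control, 24, 13 and 10 in diestrus cocaine, 12, 12 and 14 in proestrus control and 13, 17 and 13 in proestrus cocaine libraries. Male libraries held 26, 17 and 23 in control and 9 and 8 in cocaine. The male arms did not overlap, while the proestrus arms did, at a mean close to that of proestrus controls (14.3 and 12.7). The mean difference was −6.72 (exact permutation p = 0.0325, adjusted p = 0.122), and it was −1.22 with the same number of strongest peaks in each library and 0.222 with the same number in each bin of GC content. Hdac7, a class IIa gene best known in the vasculature and thymus, held 9 to 12 peaks in proestrus cocaine libraries against 15 or 16 in proestrus controls, and 12 and 8 in male cocaine libraries against 12 to 20 in male controls. Diestrus libraries held 13, 17 and 20 in control and 20, 14 and 15 in cocaine. Its mean difference was −3.78 (exact permutation p = 0.0372, adjusted p = 0.132).

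Hdac9, a class IIa gene with long introns, had a low GC content (39.0%, the lowest of the 10 genes, against 55.0% for Hdac5, the highest). Its raw peak counts differed between arms in opposite directions in females and males. Diestrus control libraries held 23, 21 and 28 peaks and diestrus cocaine libraries 33, 34 and 29. Proestrus control libraries held 16, 13 and 17 and proestrus cocaine libraries 40, 26 and 37. Male control libraries held 37, 44 and 40 and male cocaine libraries 27 and 21. In raw counts, the arms did not overlap in any of the 3 comparisons. Cocaine was higher by 8.0 peaks in diestrus and 19 in proestrus, and lower in males (mean difference −16.3). Averaged over the 3, the difference was 3.56 (exact permutation p = 0.445). Male cocaine libraries also held fewer peaks in total (87707 and 75458, against 134653 to 150009 in male controls). Relative to these totals, the Hdac9 counts of the male arms overlapped.

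The male effect minus the mean female effect on Hdac9 was −29.8 peaks. In an exact permutation of sex labels within each treatment, a test added after the data were seen, this gave p = 0.000850 (adjusted p = 0.0277 over 17159 genes), and 6.20% of all genes passed. Male controls alone exceeded all female controls (37 or more against at most 28), so the baseline also contributed to this value. The permutation treats the sexes as exchangeable in controls too, so its p does not concern the cocaine effect alone. The Hdac9 call ended when the libraries were brought to the same number of strongest peaks (−9.83, adjusted p = 0.283), to peaks per 100000 (−11.0, adjusted p = 0.258) or to the same number of strongest peaks in each of 20 bins of GC content (−8.33, adjusted p = 0.222). Leaving out any 1 of the 5 male libraries also ended it (−32.8 to −26.8, adjusted p up to 0.0946). The next member in this test was Sirt1 (−4.17, permutation p = 0.0310, adjusted p = 0.171), and the other 8 had adjusted p of 0.253 or more.

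Hdac11, the class IV enzyme, held 11 to 18 peaks in every library, with a mean difference of −1.28 (exact permutation p = 0.201). That difference was positive with equal numbers of strongest peaks (1.44), per 100000 peaks of the library (1.63) and with equal numbers per GC bin (1.78). Sirt1 held 6 to 10 peaks in the female libraries, 9, 12 and 12 in male controls and 5 and 8 in male cocaine libraries, with a mean difference of −1.72 (exact permutation p = 0.0983), which was 0.370 per 100000 peaks. Sirt2, a mainly cytoplasmic deacetylase of tubulin, held 2 to 8, with a mean difference of −1.56 (exact permutation p = 0.0578). Male cocaine libraries lay below all male controls for Hdac11, Sirt1 and Sirt2.

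Counted over the 10 genes, peak numbers in every cocaine library exceeded every control library in 1 member in diestrus (Hdac9, 3.09% of all genes), 1 in proestrus (Hdac9, 7.22%) and 0 in male (1.63%). They lay below every control library in 1 member in diestrus (Hdac3, 3.91% of all genes), 2 in proestrus (Hdac5 and Hdac7, 18.2%) and 6 in male (Hdac4, Hdac5, Hdac9, Hdac11, Sirt1 and Sirt2, 48.2%). Cocaine and control libraries in males also differed in total peaks, and the part of this in the male counts was not tested beyond the values with equal peak numbers. Groups of 3 against 3 libraries cannot give a permutation p below 0.1, so these counts are descriptions.

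Next, single regions were compared within each sex and stage. A region was counted as gained when every cocaine library and no control library called it, and as lost in the converse case. In diestrus, 3 member regions were gained (1.99%, beside 1.16% of all regions) and 2 lost (1.32%, beside 1.26%). In proestrus, 4 were gained (2.65%, beside 2.45%) and 5 lost (3.31%, beside 1.64%). In males, 0 were gained (0%, beside 1.66%) and 21 lost (13.9%, beside 16.8%). In males the member share of losses was thus below that of all regions.

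**Figure D2:**
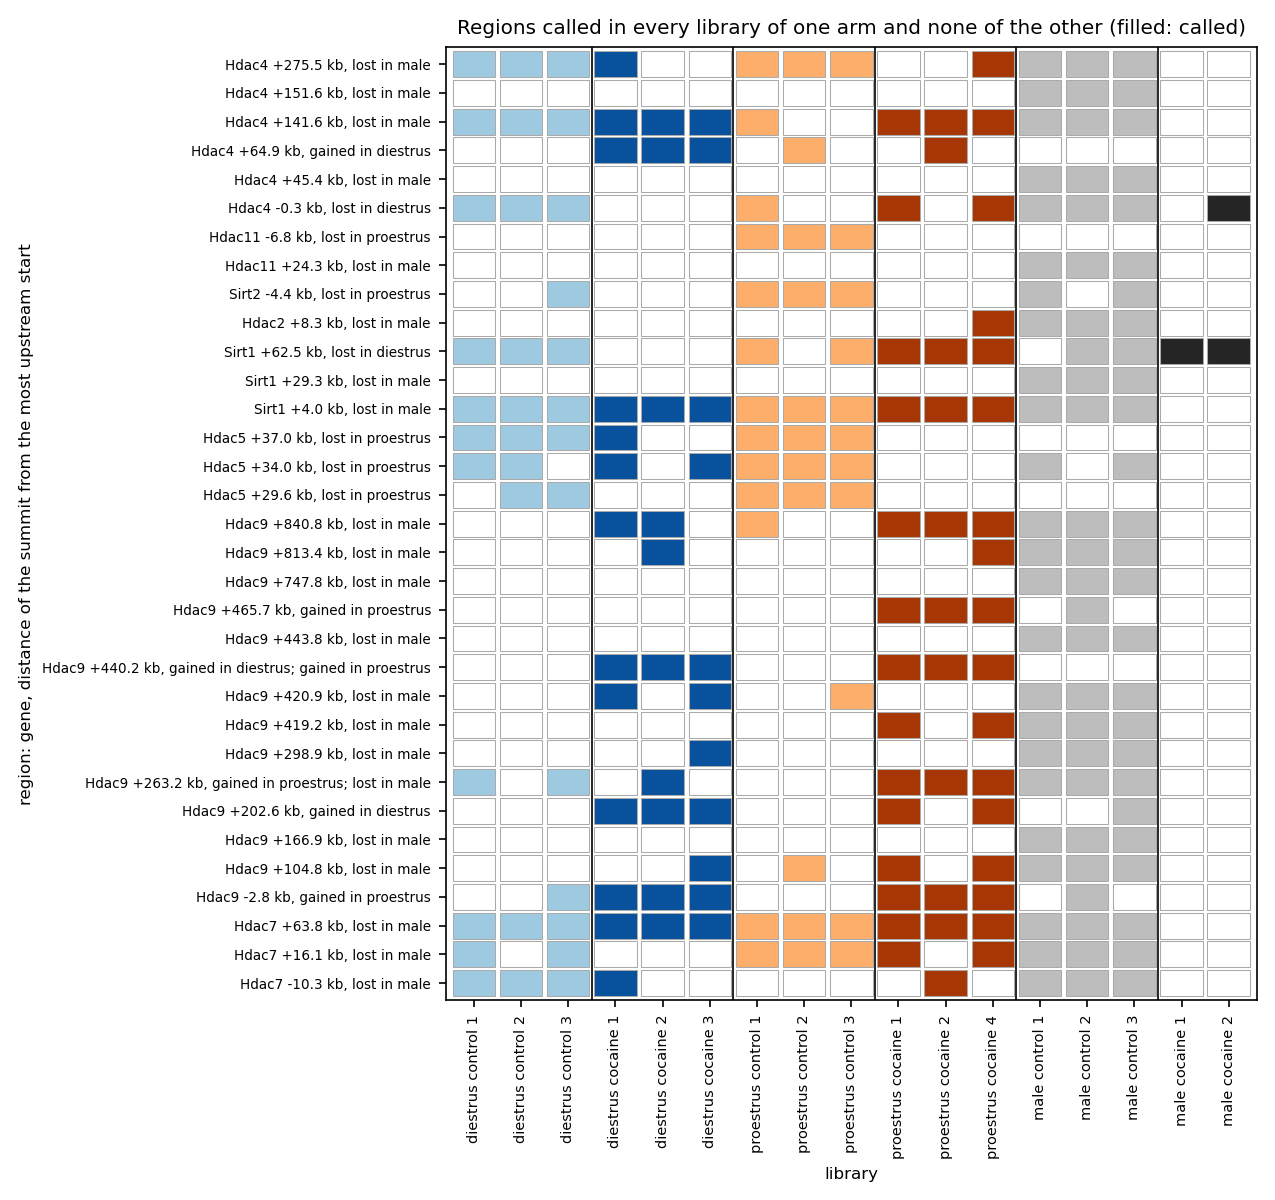
The 33 member regions (y axis, gene and distance of the summit in kb from the most upstream annotated start) that separated cocaine from control completely in at least 1 sex and stage, by library (x axis). Filled squares are called peaks, colored by group. All 4 regions gained in proestrus are in Hdac9, and the 2 male cocaine columns are empty except at Hdac4 and Sirt1.

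The gained regions belonged to Hdac9 in all 4 cases in proestrus and in 2 of 3 in diestrus, and both stages shared 1 of them. This region (chr12:34476526-34477518, 440.2 kb past the most upstream start, intron 1 of the main transcript) was called in all 6 cocaine-treated female libraries, at a fold enrichment of 3.92, 3.27 and 2.99 in diestrus and 3.40, 2.99 and 2.72 in proestrus. None of the 6 female controls and none of the 5 male libraries called it. Among peaks with a −log10 q of at least 5, it was still called in 4 of these libraries and in no other. A second Hdac9 region (chr12:34919634-34920092, 2.8 kb upstream of the gene, with an AP-1 site near its summit) was gained in proestrus, and the 3 diestrus cocaine libraries called it too, along with 1 diestrus and 1 male control. In diestrus the third gained region was in intron 2 of Hdac4 (chr1:92130466-92130990, highest fold enrichment 4.17). Among peaks with a −log10 q of at least 5, only 1 diestrus cocaine library and no diestrus control still called this Hdac4 region.

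The regions lost in proestrus were in other genes. Of 5, 3 lay in the Hdac5 window, 1 upstream of Hdac11 and 1 upstream of Sirt2. The Sirt2 region (chr7:28761692-28762528, 4.4 kb before the start) was called in 3 proestrus, 1 diestrus and 2 male controls and in no cocaine library of any group. An Hdac5 region in intron 23 (chr11:102195522-102196561) was called in the 3 proestrus controls and in no proestrus cocaine library. Among peaks with a −log10 q of at least 5, or with equal numbers of strongest peaks, no proestrus library called this Hdac5 region. The GC content of regions differed between the directions: the 4 gained regions had 35.7% to 41.4% and the 5 lost regions 47.2% to 57.4%. Mean GC over all peaks of a library was 46.3% to 46.9% in proestrus control and 44.7%, 46.0% and 44.3% in proestrus cocaine libraries, and its part in the calls was not tested beyond the following count. With equal numbers of peaks per GC bin, 2 member regions were gained (beside 2.04% of all regions) and 1 lost (beside 1.24%) in proestrus. These shares are over 83342 regions merged anew from those peaks, and the member total of that set is not given here.

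In diestrus, the weak region at the most upstream Hdac4 start, whose window with an AP-1 site is shown above, was lost. It was called at 2.84, 2.79 and 2.49 in diestrus controls and in no diestrus cocaine library. No diestrus library of either arm called it among peaks with a −log10 q of at least 5, or with equal numbers of strongest peaks. In males it was called at 4.46, 5.23 and 4.28 in controls and at 3.49 in 1 of 2 cocaine libraries, and in proestrus in 1 control and 2 cocaine libraries. The strong Hdac4 region around the RefSeq start, stayed called everywhere.

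Of the 21 regions lost in males, 10 were in Hdac9, 4 in Hdac4, 3 in Hdac7, 2 in Sirt1 and 1 each in Hdac2 and Hdac11, and 7 were called in the 3 male controls only. The strongest were in intron 1 of Hdac7 (chr15:97828129-97828716, highest fold enrichment 7.52), downstream of Hdac4 (chr1:91919625-91920688, 7.46), and in introns of Hdac9 (chr12:34075986-34076576, 7.44, with an AP-1 site, and chr12:34497597-34498316, 7.16). Male controls were the only libraries to call regions in intron 3 of Sirt1 (chr10:63351950-63352562, 5.49), intron 21 of Hdac9 (chr12:34169035-34169534, 5.37), intron 1 of Hdac4 (chr1:92150125-92150594, 4.33), downstream of Hdac11 (chr6:91180672-91181148, 4.08) and within Hdac9 (chr12:34750005-34750458, 3.72). By contrast, regions in intron 1 of Sirt1 (chr10:63377395-63378162, 5.51) and downstream of Hdac7 (chr15:97780509-97783275, 4.38) were called in all 15 libraries other than male cocaine. The intron 3 and intron 1 regions of Sirt1 are intronic in its main GENCODE transcript. They lay 29.3 and 4.0 kb past the most upstream start, before the region that held the RefSeq start (42.6 kb). Further losses were in intron 1 of Hdac9 (chr12:34495932-34496833, 4.21), intron 3 of Hdac4 (chr1:92053792-92054387, 3.94) and upstream of Hdac7 (chr15:97854457-97855071, 4.06). With the same number of strongest peaks in every library, 3 member regions were gained (beside 4.08% of all regions) and 9 lost (beside 9.35%) in males. These shares are over 94555 regions merged anew from those peaks. The member total of that set, which is not the 151 above, is not given here, so the counts give no member share.

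**Figure D3:**
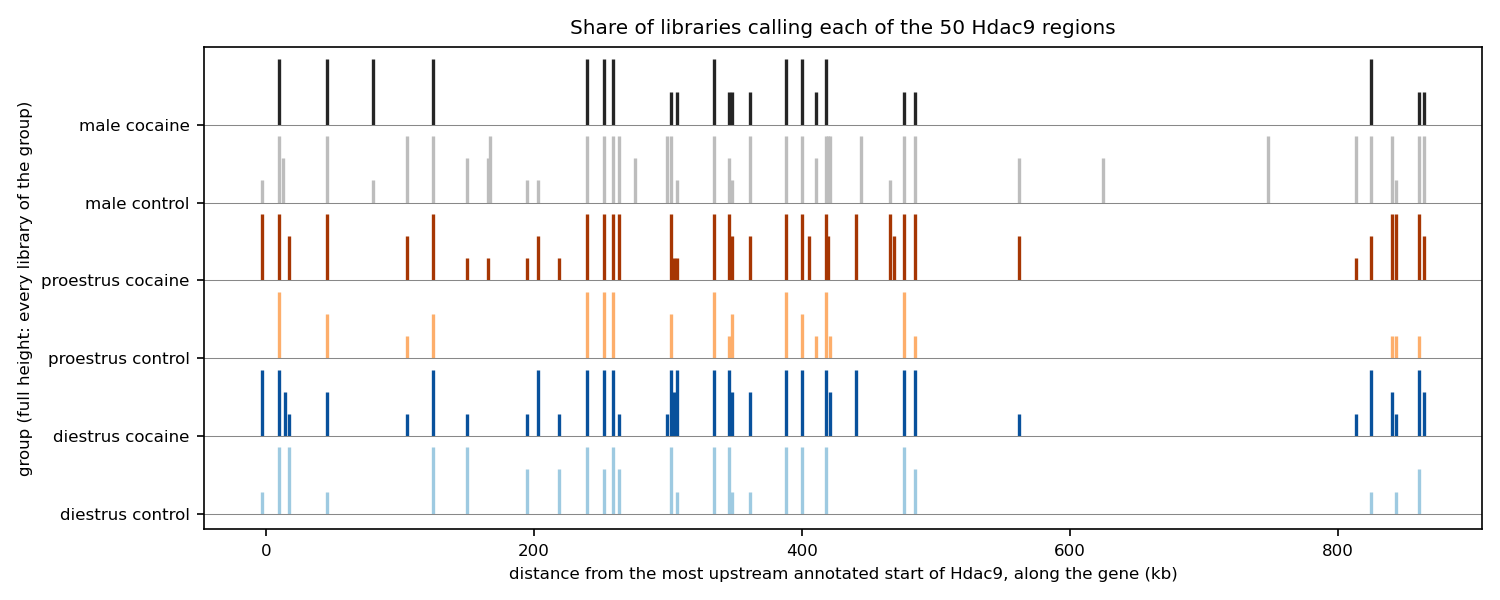
The 50 kept Hdac9 regions along the gene (x axis, distance in kb from the most upstream annotated start), with the share of libraries calling each in the 6 groups (bar height, full height for every library). Both cocaine-treated female groups have a bar at 440.2 kb that the other 4 groups lack, and the male controls show bars that the male cocaine libraries lack.

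Fisher's exact test over all libraries (8 cocaine, 9 control) could be applied to the 73 member regions with 4 to 13 calls. None passed after adjustment over 64304 regions (0% of all regions). At an unadjusted p under 0.05, 6 member regions were called less often after cocaine (8.22%, beside 9.23% of all regions) and 2 more often (2.74%, beside 3.81%). The smallest p belonged to the Hdac9 region at 440.2 kb, called in 6 cocaine libraries and 0 control libraries, and to the region downstream of Hdac4 (chr1:91919625-91920688), called in 2 cocaine and all 9 control libraries, both at Fisher's exact p = 0.00226 (adjusted p = 0.216). The Sirt2 upstream region followed with 0 cocaine and 6 control libraries (Fisher's exact p = 0.00905). Neither direction exceeded the share over all regions.

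For the 32 member regions called in all 17 libraries, fold enrichment was compared with limma on log2 values centred on each library's median, since that median ran from 2.42 and 2.48 in male cocaine to 2.89 to 3.01 in male control libraries. Differences are therefore relative to all 36847 regions tested. In diestrus, 1 member region was higher after cocaine (6.16% of all regions were) and 1 lower (4.90%). In proestrus and male none passed (3.40% and 9.56% of all regions did, in either direction), although 8 and 5 had an unadjusted limma p under 0.05. Averaged over the 3 comparisons, 2 were higher (7.95%) and 0 lower (5.87%). The median difference over the 32 was −0.03, −0.07, 0.12 and −0.01 on the log2 scale in diestrus, proestrus, male and their mean.

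The region higher in diestrus lay in Hdac9 at 258.8 kb (chr12:34657966-34658672). Its fold enrichment was 3.10, 3.57 and 3.22 in diestrus controls and 4.75, 5.03 and 4.59 in diestrus cocaine libraries, without overlap. The centred log2 difference was 0.52 ± 0.17 (SE, limma adjusted p = 0.0369), and the call ended without centring (0.54, limma adjusted p = 0.0770), with centring within GC bins (0.44, 0.0575) and among regions called in at least 14 libraries (0.50, 0.0618). The region lower in diestrus lay in Hdac5 (chr11:102215025-102222921), with a MEF2 match near its summit, at 13.4 ± 0.945 (SD, n = 3) in controls and 9.73 ± 3.98 (SD, n = 3) in cocaine libraries, whose ranges overlapped. Its centred difference was −0.56 ± 0.18 (SE, limma adjusted p = 0.0372), a call that ended without centring (limma adjusted p = 0.170). Either call ended when any 1 diestrus library other than diestrus cocaine library 1 was left out. Without diestrus cocaine library 1, 9 member regions passed in diestrus (beside 27.4% of all regions). Without proestrus cocaine library 2, 8 passed in diestrus (beside 16%) and 9 in proestrus (beside 10.4%).

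Averaged over the 3 comparisons, 2 Hdac9 regions were higher after cocaine. One, in intron 1 (chr12:34498365-34499955), averaged 3.77 ± 0.701 in proestrus control and 5.58 ± 0.181 in proestrus cocaine libraries (SD, n = 3 each) and 5.42 ± 0.710 in male control and 4.61 ± 0.438 in male cocaine libraries before centring. Its centred difference was 0.33 ± 0.11 (SE, limma adjusted p = 0.0370). The other (chr12:34905122-34908555, 9.9 kb past the most upstream start) had a difference of 0.26 ± 0.09 (SE, limma adjusted p = 0.0475). Without centring they were 0.21 and 0.14 and lost the call (limma adjusted p up to 0.260 and 0.431 over the alternatives), and 10 and 13 of the 17 single-library omissions ended them.

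**Figure D4:**
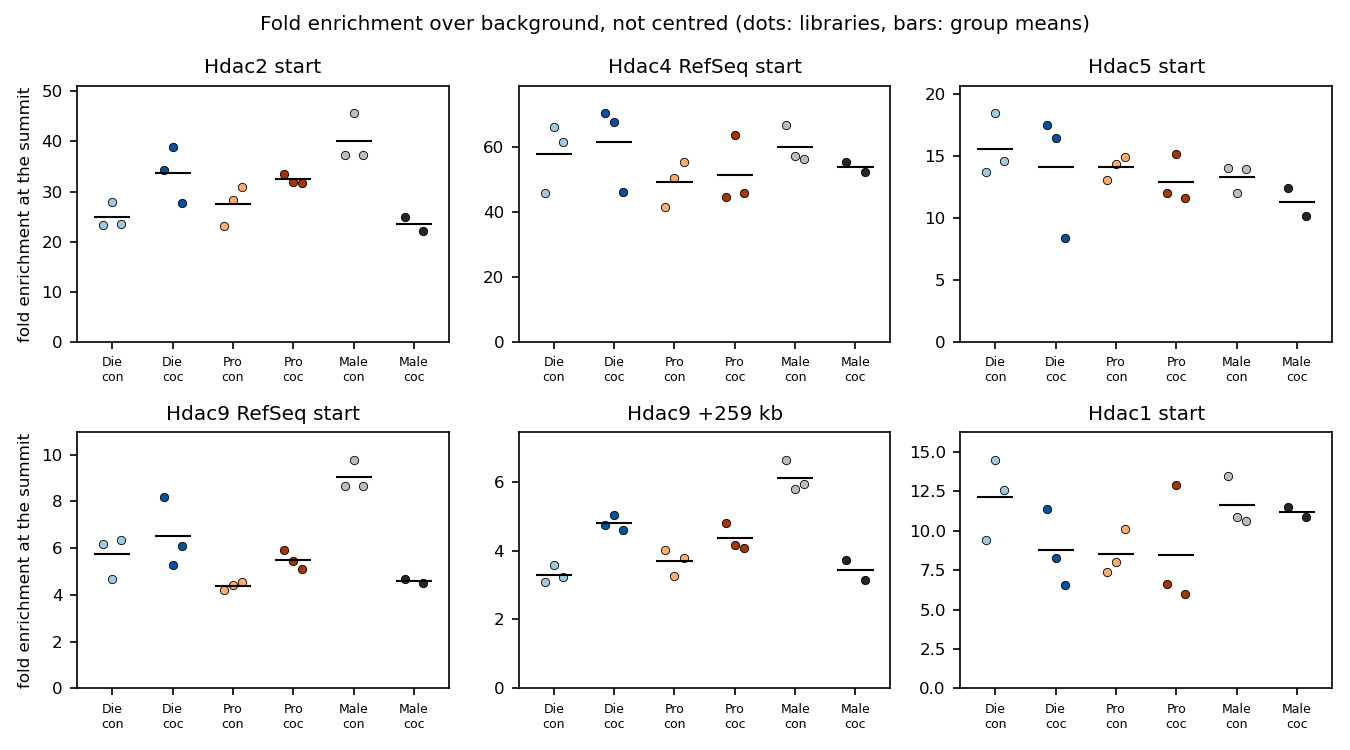
Fold enrichment at the summit over the background of the same library (y axis, not centred) for 6 member regions, by group on the x axis. Dots are libraries and bars group means. At the Hdac2 start, the Hdac9 RefSeq start and the Hdac9 region at 258.8 kb the male control mean is the highest of the 6 groups and both male cocaine libraries lie below the 3 male controls, while at the Hdac1 start male control (11.7) and male cocaine (11.2) are alike in mean. The median log2 fold enrichment over all tested regions was also lower in male cocaine libraries (2.42 and 2.48) than in male controls (2.89 to 3.01).

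The cocaine effect in males minus that in females differed from 0 in 7 of the 32 regions, 4 higher (11.9% of all regions were) and 3 lower (6.53%). The 3 lower ones were at the Hdac2 start and in Hdac9. At the Hdac2 start, uncentred fold enrichment was 37.2 to 45.6 in male controls and 22.1 to 25.0 in male cocaine libraries. The control and cocaine means were 25.0 and 33.7 in diestrus and 27.5 and 32.4 in proestrus. The centred difference between sexes was −0.55 ± 0.18 (SE, limma adjusted p = 0.0330). At the Hdac9 RefSeq start it was 8.67, 9.78 and 8.67 in male controls, 4.70 and 4.53 in male cocaine libraries, and between 4.22 and 8.19 in all female libraries (−0.67 ± 0.23, SE, limma adjusted p = 0.0353). At Hdac9 258.8 kb male controls had 6.63, 5.78 and 5.93 and male cocaine libraries 3.72 and 3.14 (−0.68 ± 0.22, SE, limma adjusted p = 0.0276). After centring, the male cocaine effect alone passed at none of these regions. It was −0.28 at the Hdac2 start, −0.48 at the Hdac9 RefSeq start and −0.35 at Hdac9 258.8 kb (limma adjusted p = 0.253, 0.0978 and 0.219). The 3 values kept their sign without centring and with centring within GC bins (−0.86 for Hdac2, −0.60 and −0.58 for Hdac9), the last of them at a limma adjusted p of 0.0516. Single-library omissions ended these calls for 7, 7 and 4 of the 17 libraries, among them each male cocaine library. Without diestrus cocaine library 1, 11 member regions passed in this comparison (beside 27.8% of all regions).

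The 4 higher ones were at the starts of Hdac1 (0.78 ± 0.25, SE, limma adjusted p = 0.0307) and Sirt2 (0.63 ± 0.21, adjusted p = 0.0336) and in the flank of Hdac5, at the starts of Lsm12 (0.68 ± 0.21, adjusted p = 0.0223) and G6pc3 (0.72 ± 0.24, adjusted p = 0.0332). In uncentred values, male means at Hdac1 were 11.7 in control and 11.2 in cocaine, and diestrus means 12.2 and 8.75. Centring within GC bins ended all 4 calls (0.54 at Hdac1, 0.38 at Sirt2, 0.55 and 0.58 at the Hdac5 flank), and without centring they were 0.23, 0.09, 0.14 and 0.17. Requiring calls in at least 14 libraries in place of all 17 ended the 4 calls too. The Sirt2 region, also at an Nfkbib start, kept its call under 0 of the 5 alternatives, quantile normalization included. Single-library omissions ended them for 8, 9, 3 and 9 of the 17 libraries.

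**Figure D5:**
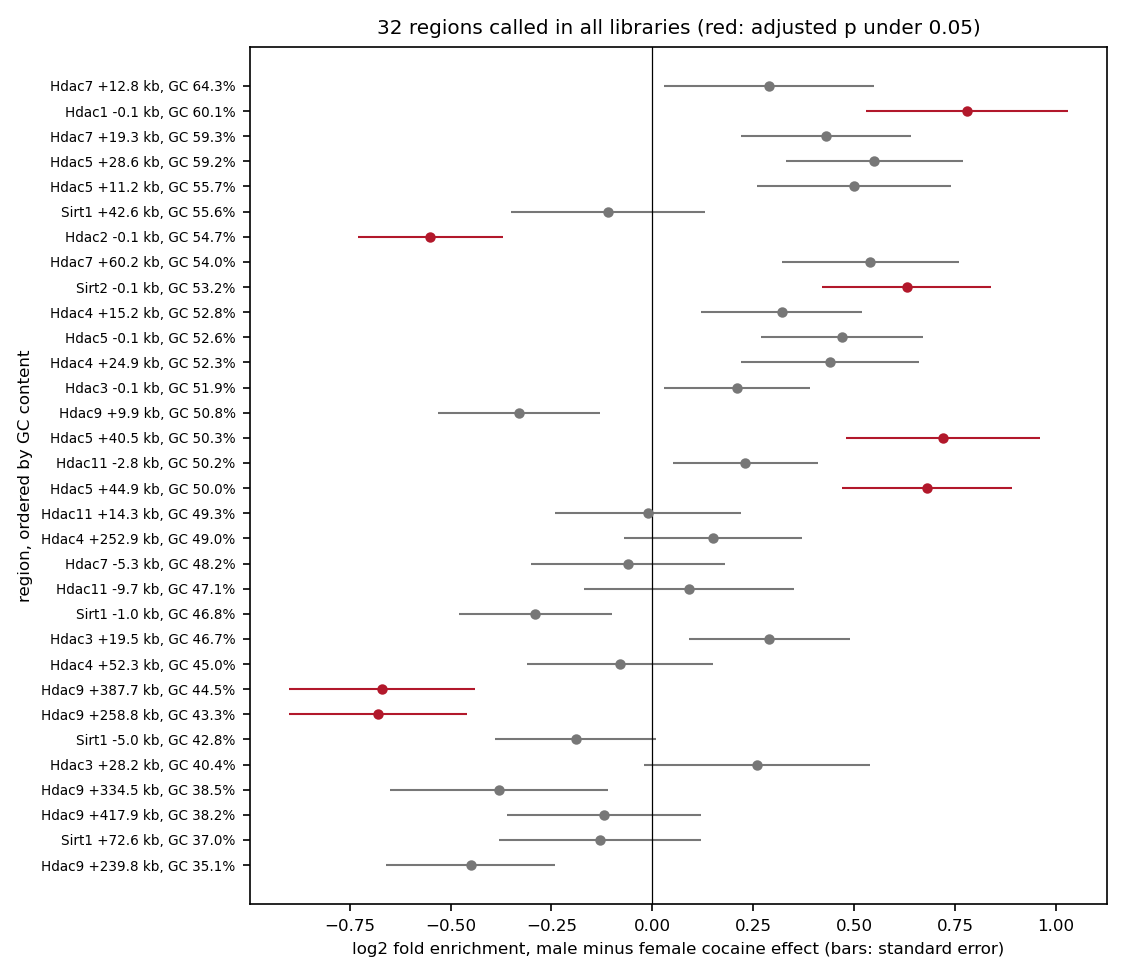
Male minus female cocaine effect on centred log2 fold enrichment (x axis, bars give the standard error) for the 32 member regions called in all libraries, ordered by GC content on the y axis. Red marks a limma adjusted p under 0.05. Values above 0 prevail among regions of higher GC content, and the Hdac2 start (−0.55 at 54.7% GC) departs from its neighbors.

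In controls, male minus female fold enrichment differed in 5 member regions, 4 higher in males (10.5% of all regions were) and 1 lower (14.4%). Higher were the Hdac9 RefSeq start (0.56 ± 0.15, SE, limma adjusted p = 0.00543), Hdac9 at 258.8 kb (0.52 ± 0.14, adjusted p = 0.00774), a region upstream of Sirt1 at the start of Dnajc12 (chr10:63385618-63387869, 0.36 ± 0.13, adjusted p = 0.0423) and the Hdac2 start (0.32 ± 0.12, adjusted p = 0.0475). Lower was the Hdac5 start (−0.44 ± 0.13, adjusted p = 0.0130), where uncentred means were 13.3 in male, 15.6 in diestrus and 14.1 in proestrus controls. Of these, Hdac9 at 258.8 kb passed under every alternative and library omission run, and the Hdac9 RefSeq start failed only without male control library 2 (limma adjusted p = 0.0531). The Hdac5 difference was −0.15 without centring (limma adjusted p up to 0.557) and also lost the call without male control library 2. The Hdac2 and Dnajc12 starts lost theirs in 10 and 7 of the 17 omissions (limma adjusted p up to 0.347 and 0.215) and among regions called in at least 14 libraries (0.0743 and 0.0545). Between diestrus and proestrus controls 0 of 32 passed (0.318% of all regions did), with 4 at an unadjusted limma p under 0.05. These comparisons share control libraries with the cocaine comparisons above.

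Peak numbers at other genes of the pathway were compared in the same permutation test. Of 6 other deacetylases tested on autosomes, 4 had fewer peaks after cocaine at an unadjusted p under 0.05 (Sirt4, Sirt5, Sirt6, Sirt7), as did 11 of 16 corepressor complex genes and 2 of 7 genes for class IIa partners, beside 30.5% of all genes. None had more, and none passed after adjustment. These are raw counts, and values with equal peak numbers, per library total or per GC bin were not examined for these genes. At members, such settings shrank or reversed several differences. Ncor1, the corepressor that binds Hdac3, had a mean difference of −12.7 peaks (exact permutation p = 0.00100, adjusted p = 0.0512). Rcor2, a subunit of the CoREST complex, had −7.56 (exact permutation p = 0.00125, adjusted p = 0.0512). Among class IIa partners, Mef2b (−6.00, exact permutation p = 0.00150, adjusted p = 0.0512) and Mef2d (−5.89, exact permutation p = 0.0205, adjusted p = 0.0974) had fewer. Mef2c, a long gene of low GC content (37.5%), had a mean of 21.7 peaks in diestrus control and 26 in diestrus cocaine, 25.0 and 39.0 in the proestrus groups and 48.7 and 24.5 in the male groups. These raw means were higher after cocaine in both female stages and lower in males, as were the raw counts at Hdac9, whose male arms overlapped relative to library totals. It was chosen after its values were seen.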

How the data were processed

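The members, gene lists and tests were chosen with earlier results of these data known. Per the labels and the study's methods, the authors used BWA-MEM for alignment to mm10 and MACS2 for peaks, library by library, with versions and options not given in the sources used here. Each deposited peak carries a display score, a fold enrichment of summit over background pileup (a ratio within the library), and −log10 values of p and q. The score was not needed further. The authors tested read counts with DESeq2, but read counts were not used here. Calls and fold enrichments were compared in place of that test. Fold enrichments came in whole steps (100% within 0.01 of a step), which gave each library's background pileup, but total depth is unknown. In no pair of libraries were more than 0.0728% of intervals identical in coordinates, which does not concern overlapping peaks.

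Peaks overlapping by 1 bp or more were merged, and regions called in at least 2 libraries of 1 group were kept. Places came from GENCODE vM21 on GRCm38 (the build of the files), with promoters within 1 kb of a start, and promoter sequences from RefSeq (GRCm38.p6). Tests were Fisher's exact test, exact permutations (4000 assignments within sex and stage, 2352 for sex), and limma 3.58.1 (R 4.3.3) with a mean-variance trend on log2 fold enrichment, one fit of 6 group means, all two-sided with Benjamini-Hochberg adjustment at 0.05. Calculations ran in Python 3.11.15 with scipy 1.17.1 and were tested on simulated data. Replicates are pools of 3 animals. Whether pools shared a preparation day was not given in the sources used here.

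Named were all members, their start regions, regions past a limma threshold, the 3 strongest regions and, of the 33 separated regions, the 20 with the highest fold enrichment. The sex test of peak numbers and the GC-bin alternative were added after the data were seen. Same-numbered libraries were checked for pairing: the correlations of their deviations ran from −0.29 to 0.20, so numbers were not taken as pairs.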

Additional observations from a re-analysis of the deposited data

Results flagged for a closer look

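Except in the last case, the values below passed a test on the male minus female effect of cocaine. For the Hdac9 window, that test also assumes no sex difference in controls, and male controls exceeded all female controls. Its p is therefore not for the cocaine effect alone. No group had more than 3 libraries, so single outlying libraries could not be tested within a group.

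The male minus female cocaine effect was −29.8 peaks in the Hdac9 window. For log2 fold enrichment it was −0.55 at the Hdac2 start, −0.67 at the Hdac9 RefSeq start and −0.68 at the Hdac9 region 258.8 kb past the most upstream start. It was 0.78 at the Hdac1 start, 0.63 at the Sirt2 start, and 0.68 and 0.72 in the Hdac5 flank at the starts of Lsm12 and G6pc3. Tests and standard errors stand with these values in the report.

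The Hdac9 region at 263.2 kb (chr12:34653648-34654409) was called in 9 libraries and moved in opposite directions: it was called in 3 of 3 proestrus cocaine and 0 of 3 proestrus control libraries, and in 0 of 2 male cocaine and 3 of 3 male control libraries. In diestrus, 2 control libraries and 1 cocaine library called it. Its fold enrichment was 3.30, 3.10 and 3.04 in proestrus cocaine and 3.44, 3.17 and 3.40 in male control libraries. With the same number of strongest peaks in every library it was called in 3 proestrus cocaine and 0 male control libraries. This difference between groups was not tested.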

How the results depend on the processing

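Gained plus lost member regions numbered 5 in diestrus, 9 in proestrus and 21 in males. They became 1 and 5 (diestrus, proestrus) among peaks with −log10 q of at least 5, 2, 5 and 12 with equal numbers of strongest peaks, and 2 and 3 (diestrus, proestrus) with equal numbers per GC bin. Leaving out 1 library gave 7 to 18 in diestrus, 10 to 25 in proestrus and 23 to 35 in males, since fewer libraries separate more easily, with the most without diestrus cocaine library 1, proestrus cocaine library 2 and male control library 2. The Fisher count stayed at 0 in all omissions.

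For cocaine against control, no member window passed under any setting except without diestrus cocaine library 1 (0 to 4 over the omissions). Differences in peak number changed sign for Hdac2 (−0.222 with q of at least 5, −0.278 with GC bins), Hdac3 (0.278, equal peaks), Hdac11 (1.44 with equal peaks, 1.63 per 100000 peaks, 1.78 with GC bins), Sirt1 (0.370 per 100000, where its sex difference was 0.182), Hdac4 (0.222, GC bins) and Hdac1 (−0.500 with GC bins, −0.222 without proestrus cocaine library 2). None of these had passed. The cause was not tested.

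Limma counts of 2 in diestrus, 0 in proestrus, 0 in males, 2 in their mean, 7 for the sex difference in the effect and 5 between the sexes in controls changed as follows. Without centring they were 0 in diestrus, 6 in males, 0 in the mean, 12 for the sex difference, 8 in controls, and 1 between stages in controls. With centring within GC bins they were 4, 1, 4 and 2 (diestrus, male, mean, sex difference), with quantile normalization 4, 1 and 1 (diestrus, proestrus, male), and for regions called in at least 14 libraries 1, 1, 0 and 4 (diestrus, male, mean, sex difference). A replicate block on the library number gave 1 for the mean, neither of the 2 Hdac9 regions (limma adjusted p = 0.0852 and 0.0685), and 3 for the sex difference, without the Hdac9 RefSeq start (0.0535) and the starts of Hdac1 (0.0582), Sirt2 (0.0664) and G6pc3 (0.0657). Proestrus cocaine library 4 has no partner there and dropped out. Leaving out 1 library gave 0 to 9 in diestrus and in proestrus, 0 to 2 in males, 0 to 6 for the mean, 0 to 11 for the sex difference, 1 to 7 in controls and 0 to 1 between stages. An omission that leaves 1 male cocaine library assumes it varies like the other groups.

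Depth and enrichment over background limit weak peaks: a missing call can hide reads, and read totals were not used. Male cocaine rests on 2 libraries.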
